A study of Mus musculus with 12 samples.

Results

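The genes described here are 55 genes of the fibroblast extracellular matrix and the mesenchymal state, namely collagens, matrix glycoproteins, crosslinking and remodelling enzymes, mesenchymal surface and cytoskeletal proteins, mesenchymal transcription factors and TGF-beta signalling genes. Methylation came from reduced representation bisulfite sequencing (RRBS), an assay that reads cytosine methylation at CpG-rich fragments, in 12 libraries of immortalized mouse embryonic fibroblasts (iMEFs). A member was counted as measured when its promoter, the window from -1500 to 500 bp around its transcription start site (TSS) in mm10, held at least 3 cytosines listed in all 12 libraries. By this rule 29 of the 55 genes were measured, out of 13491 measured promoters in all, of which 13141 were autosomal. The values are beta values, the share of reads called methylated at a cytosine from 0 to 1, averaged over the cytosines of a promoter.

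The experimental iMEF line was R26M2rtTA/+;TetOcre;Sdhcfl/fl and the control line R26M2rtTA/+;TetOcre;Sdhcfl/wt. Both lines carried the reverse tetracycline transactivator and the tet-inducible Cre, and both were immortalized with SV40. Doxycycline turns on Cre, which removes a floxed exon of Sdhc, a subunit of succinate dehydrogenase, from both alleles in the experimental line and from 1 allele in the control line. Each line gave 1 library at day 0, before doxycycline, and 1 on each of days 5, 9, 12, 16 and 20. The main comparison, in which the study looked for methylation differences after induction, set the 6 control libraries against the 5 experimental libraries of days 5 to 20. The libraries of a line are time points of that line, so the p-values measure the spread between time points, and genotype and other differences between the 2 lines cannot be told apart.

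Fibroblasts build the interstitial matrix from fibrillar collagens, fibronectin and fibrillins, crosslink it with lysyl oxidases and remodel it with matrix metalloproteinases held in check by TIMPs. Twist, Snail and Zeb transcription factors are known for the mesenchymal state, and TGF-beta signalling for driving matrix genes. Most CpG-rich promoters carry little methylation whether or not the gene is active, while CpG-poor upstream DNA and gene bodies are usually methylated. Succinate, which builds up when succinate dehydrogenase is lost, inhibits 2-oxoglutarate-dependent dioxygenases, among them the TET enzymes that start DNA demethylation and the prolyl hydroxylases that modify collagen.

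Of the 26 unmeasured genes, 21 had no such cytosine and 5 had 1 or 2. Col1a1, which encodes the alpha 1 chain of type I collagen, Postn (periostin) and Bgn (biglycan) fell just short with 2 cytosines each, and Col6a1 and Loxl1 had 1 each. Just inside the minimum were Pdgfrb with 3 cytosines and Col11a1 and Pdgfra with 4 each. The measured promoters held 14 cytosines at the median, from 3 to 33, against 13 over all measured promoters. Col4a1 and Col4a2, the head-to-head genes of the basement membrane type IV collagen, share all of their 27 cytosines, so the 474 cytosines counted per gene were 447 different ones. RNA was not part of these libraries, so the fibroblast identity could not be checked by expression. Of the 11 fibroblast markers, 6 had a measured promoter, with mean beta values between 0.00343 for Vim and 0.879 for Col1a2. Of 9 epithelial, 5 endothelial, 7 blood, 4 muscle and 4 neural markers, 4, 2, 0, 4 and 2 were measured. Promoter levels of the markers do not show which cells were present. The libraries listed between 932307 and 1716381 cytosines, fewest at control day 12. The read depth behind each value is unknown.

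The promoter sequences below show the CpG content on which the measurement rests, for 3 promoters with almost no methylation, 2 with some and 1 CpG-poor promoter with high methylation. Each is the 250 bases upstream of the start that the RefSeq table for GRCm38.p6 gives, 5′ to 3′ on the gene's strand, and capitals mark the CpGs with a cytosine listed in all 12 libraries. The first 3 are Vim (vimentin, plus strand, chr2:13574061-13574310), Snai1 (Snail, plus strand, chr2:167537945-167538194) and Timp2 (a metalloproteinase inhibitor, minus strand, chr11:118355412-118355661). The others are Col5a3 (a type V collagen chain, minus strand, chr9:20815068-20815317), Timp3 (a matrix-bound metalloproteinase inhibitor, plus strand, chr10:86300162-86300411) and Postn (plus strand, chr3:54359017-54359266).
Vim: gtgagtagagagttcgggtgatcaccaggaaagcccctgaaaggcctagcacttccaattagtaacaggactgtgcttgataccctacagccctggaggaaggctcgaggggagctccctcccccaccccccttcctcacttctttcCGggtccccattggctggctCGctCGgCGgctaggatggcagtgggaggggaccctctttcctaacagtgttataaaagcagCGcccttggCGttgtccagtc
Snai1: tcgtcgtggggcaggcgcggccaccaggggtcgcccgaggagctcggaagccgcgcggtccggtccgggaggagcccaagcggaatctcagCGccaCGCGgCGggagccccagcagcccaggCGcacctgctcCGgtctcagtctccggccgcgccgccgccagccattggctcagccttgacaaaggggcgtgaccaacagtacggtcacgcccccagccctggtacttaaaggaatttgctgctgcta
Timp2: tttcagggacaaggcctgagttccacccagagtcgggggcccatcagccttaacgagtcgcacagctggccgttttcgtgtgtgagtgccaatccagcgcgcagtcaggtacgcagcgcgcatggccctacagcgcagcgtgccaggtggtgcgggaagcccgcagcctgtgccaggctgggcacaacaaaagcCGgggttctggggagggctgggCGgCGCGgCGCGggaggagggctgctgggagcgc
Col5a3: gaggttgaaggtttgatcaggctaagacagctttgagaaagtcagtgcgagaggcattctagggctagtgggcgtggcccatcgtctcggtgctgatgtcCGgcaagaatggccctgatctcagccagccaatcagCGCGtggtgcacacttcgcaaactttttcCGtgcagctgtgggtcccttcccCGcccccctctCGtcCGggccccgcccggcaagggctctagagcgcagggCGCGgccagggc
Timp3: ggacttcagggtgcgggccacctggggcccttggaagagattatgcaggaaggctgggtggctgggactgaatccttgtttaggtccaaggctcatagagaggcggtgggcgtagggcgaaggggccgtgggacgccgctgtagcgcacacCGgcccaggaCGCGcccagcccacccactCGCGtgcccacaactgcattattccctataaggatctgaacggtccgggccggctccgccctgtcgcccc
Postn: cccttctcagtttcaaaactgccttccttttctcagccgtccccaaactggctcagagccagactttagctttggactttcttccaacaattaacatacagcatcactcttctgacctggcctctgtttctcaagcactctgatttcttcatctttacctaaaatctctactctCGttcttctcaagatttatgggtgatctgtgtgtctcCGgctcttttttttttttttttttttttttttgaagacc

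Over the marked cytosines the mean beta value in the 12 libraries was 0.0019 for Vim, 0.000244 for Snai1 and 0.0047 for Timp2. It was 0.0907 for Col5a3, 0.252 for Timp3 and 0.75 for Postn, whose 250 bases hold 3 CpGs, against 27 for Snai1. The table held a window of 300 bases, from 250 before to 50 after the start, for 32 of the 55 genes. The median number of CpGs was 20 in the 17 measured genes, 9 in the 15 others and 7 over 31396 autosomal windows. The letters CCGG, which read the same on both strands and are the site at which MspI, the enzyme commonly used in RRBS, cuts, occurred in 14 of 17, in 6 of 15 and in 53.5% of all windows. The enzyme used for these libraries is not given in the sources used here.

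The promoters of this gene set were mostly low in methylation, with a few far higher. The median beta value over the 12 libraries was 0.0509, against 0.0251 over all autosomal promoters, and 18 of the 29 were under 0.1, 62.1% against 66.7% of all. Only Col1a2 and Pdgfra reached 0.5, 6.9% of the set against 14.2% of all promoters. In 14 of 29 the value stayed under 0.1 in every library, against 54.4% of all promoters. Among these were Fn1 (fibronectin), Vim, Timp2, Tgfbr2 (the type II TGF-beta receptor), Snai1, Snai2, Zeb2, the shared Col4a1 and Col4a2 promoter and Cdh2 (N-cadherin). Of the 447 cytosines, 149 (33.3%) had the same value in all 12 libraries, and that value was 0 for each.

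**Figure D1:**
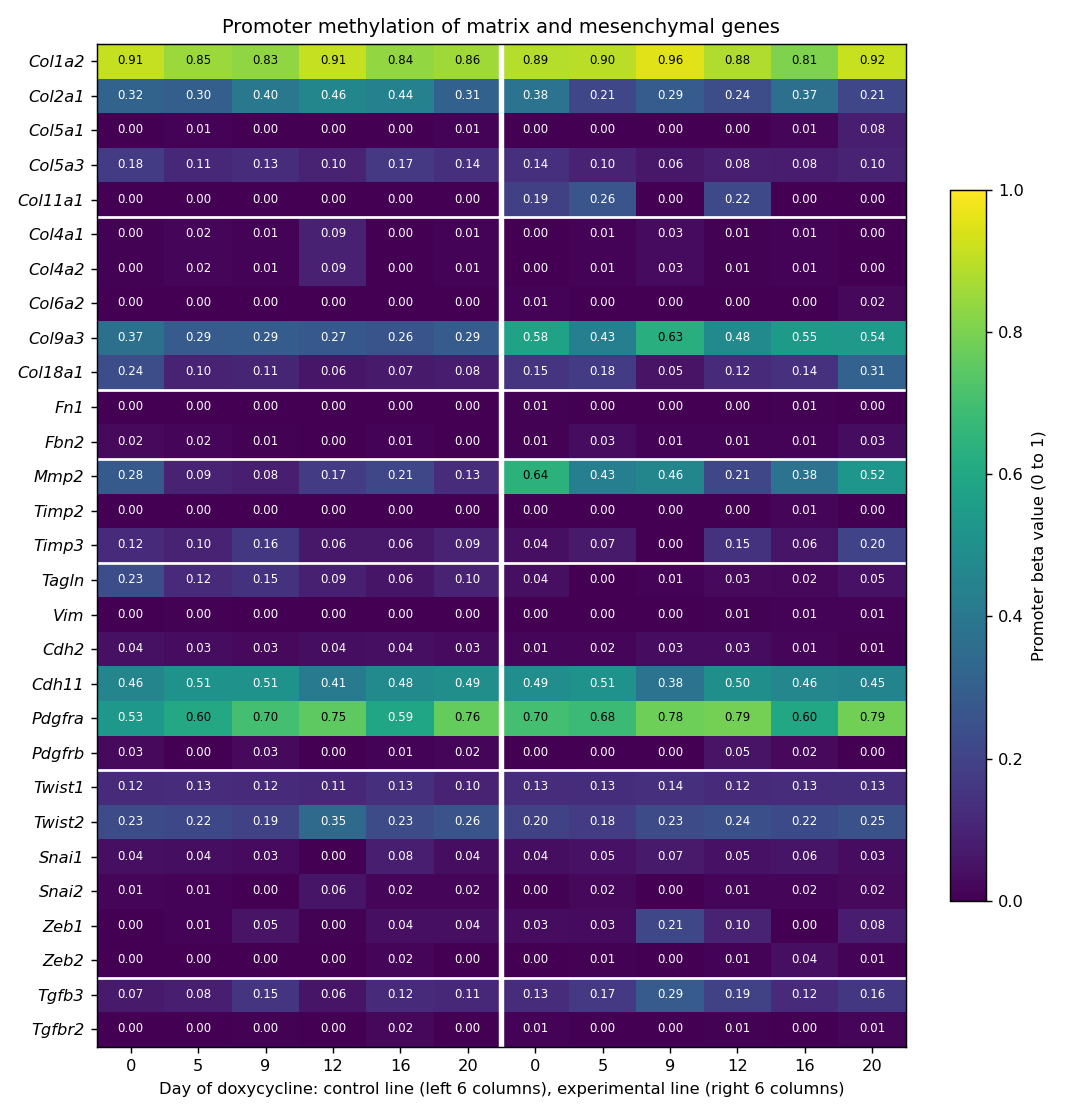
Mean beta value of the 29 measured promoters (rows, in blocks by role) in each of the 12 libraries (columns: control days 0 to 20, then experimental days 0 to 20), with the value printed in each cell and colour from 0 to 1. Col1a2 and Pdgfra are the highest rows. Col9a3 is higher in every experimental column, day 0 included. Mmp2 is higher in all but experimental day 12, which lies below control day 0 (0.212 against 0.284).

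By role, the 5 measured fibrillar collagens of 8 ran from 0.00978 for Col5a1 to 0.879 for Col1a2. The 5 other collagens of 9 ran from 0.00262 for Col6a2 to 0.415 for Col9a3. Both measured genes of the 11 glycoproteins, elastic fibre proteins and proteoglycans, Fn1 and Fbn2 (fibrillin 2), were under 0.1. Of the 8 crosslinking and remodelling genes, Timp2, Timp3 and Mmp2 were measured, at 0.00173, 0.093 and 0.302. The 6 measured surface and cytoskeletal genes of 9 ran from 0.00343 for Vim to 0.69 for Pdgfra. All 6 transcription factors were measured, from 0.00679 for Zeb2 to 0.233 for Twist2, and of the 4 TGF-beta genes Tgfbr2 and Tgfb3 were, at 0.00522 and 0.138.

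Where a promoter of the set was methylated, the methylation often lay far upstream. The 27 cytosines more than 1 kb upstream had a mean beta value of 0.783, and 24 of them were over 0.5. Over all measured promoters that interval held 9522 cytosines with a mean of 0.318. Negative distances are upstream of the TSS. The 27 came from 7 genes, with 9 from Cdh11, 6 from Col1a2 and 4 each from Pdgfra and Twist1, so they are few independent places. Within 500 bp upstream and 500 bp downstream the means were 0.0746 and 0.0748, against 0.0706 and 0.0684 over all promoters. These are descriptions, with no test.

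**Figure D2:**
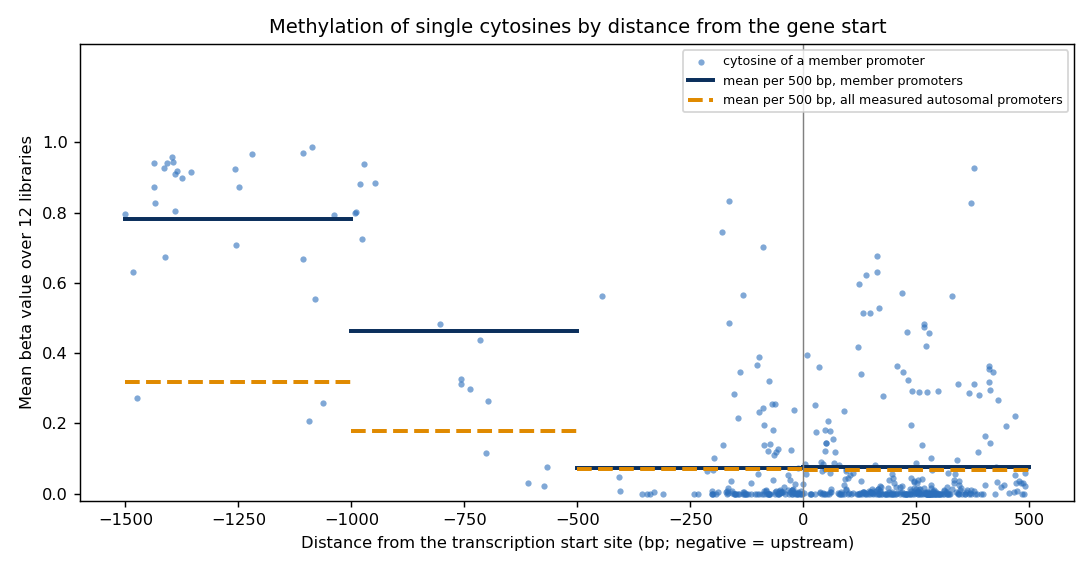
Mean beta value over 12 libraries of each cytosine in the measured promoters (points) by distance from the TSS in bp, with the mean per 500 bp for the set (solid) and for all measured autosomal promoters (dashed). The set lies above all promoters in the interval farthest upstream, 0.783 against 0.318, and beside them within 500 bp of the start.

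Twist1, a basic helix-loop-helix factor of mesoderm, showed this within 1 promoter. Its 4 cytosines at -1483 to -1355 bp averaged 0.824 and its 23 cytosines at 146 to 342 bp averaged 0.00239. In Twist2, a close relative, 6 cytosines at -992 to -947 bp averaged 0.839 and 5 cytosines at -54 to -14 bp averaged 0.00695. Cdh11, a cadherin of mesenchymal cells, had 3 levels. It stood at 0.872 over 9 cytosines from -1500 to -1391 bp, 0.411 over 10 around the TSS, and 0.0396 over 7 from 468 bp downstream. The promoter mean of such a gene therefore depends on where its cytosines lie.

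The promoter values of Col1a2 and Pdgfra rest entirely on upstream cytosines. For Col1a2, the alpha 2 chain of type I collagen, all 6 lay from -1257 to -1081 bp, none near the start. The experimental values were 0.896, 0.957, 0.88, 0.807 and 0.917 on days 5 to 20 and 0.888 at day 0. The control values ran from 0.833 to 0.914 with a median of 0.852, and the groups overlapped (adjusted p = 0.61). For Pdgfra, the PDGF receptor alpha chain, the experimental values were 0.68, 0.78, 0.79, 0.601 and 0.787, and 0.701 at day 0. The control values ran from 0.532 to 0.763 with a median of 0.653, and the difference did not pass (adjusted p = 0.505). The 4 Pdgfra cytosines lay from -1474 to -1108 bp of the start used here. The RefSeq promoter table gives a start 929 bp inside the gene, from which they fall outside the promoter window.

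Between the lines, 2 of the 29 promoters differed past an adjusted p of 0.05, Col9a3 higher and Tagln lower in the experimental line. Over all 13141 autosomal promoters 2.57% passed, 1.8% higher and 0.769% lower. At an unadjusted p under 0.05 there were 7 of 29, against 18.1% of all promoters. The values of the 2 groups did not overlap in 2 of 29, Col9a3 and Tagln, against 4.38% of all. The median difference of the set, experimental minus control, was 0.00384, against 0.00251 over all promoters, and 19 of 29 differed by under 0.05, 65.5% against 79.6%. Tests were by limma on the log ratio of methylated to unmethylated share (M-value), adjusted over all promoters.

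Col9a3 encodes a chain of type IX collagen, which decorates the type II collagen fibrils of cartilage. Its 33 cytosines lay in 1 stretch from 27 to 468 bp downstream of the TSS, chr2:180598129-180598570. The experimental values were 0.432, 0.632, 0.477, 0.547 and 0.543 on days 5, 9, 12, 16 and 20, and 0.576 at day 0. The control values ran from 0.258 to 0.37, with a median of 0.289. Every experimental library, day 0 included, was above every control library. The means were 0.526 ± 0.0759 (SD, n = 5) and 0.296 ± 0.0388 (SD, n = 6), and the M-value difference was 1.38 ± 0.22 (SE, adjusted p = 0.0113). The direction was shared by 30 of the 33 cytosines.

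Within the Col9a3 stretch the cytosines differed widely in level. The cytosine 378 bp downstream had a mean beta value of 0.928 over the 12 libraries and the one 69 bp downstream 0.119. The cytosine with the widest gap between the means, 0.605, lay 232 bp downstream, at 0.0467 in control libraries. Each was picked after its value was seen, and no single cytosine of the set passed.

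Tagln encodes transgelin, an actin-binding protein of smooth muscle and contractile fibroblasts. Its 14 cytosines spanned the TSS from -78 to 152 bp, chr9:45935906-45936136. The experimental values were 0, 0.00893, 0.027, 0.0212 and 0.0476 on days 5 to 20, and 0.04 at day 0. The control values ran from 0.056 to 0.235 with a median of 0.11. All control libraries were above all experimental ones, and the highest control value was that of day 0. The means were 0.021 ± 0.0182 (SD, n = 5) and 0.124 ± 0.0622 (SD, n = 6), with an M-value difference of -2.39 ± 0.49 (SE, adjusted p = 0.0353). Of the 14 cytosines, 12 were lower. The call was lost when any of 8 single libraries was left out: control day 0 (0.0516), 5 (0.0656), 9 (0.0698) or 20 (0.0631), or experimental day 5 (0.0616), 9 (0.0709), 12 (0.0648) or 16 (0.0636), each value being the adjusted p. It was also lost with beta values in place of M-values (adjusted p = 0.0916).

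Mmp2, the gelatinase A that cleaves denatured and basement membrane collagen, had the widest gap of the set and did not pass (adjusted p = 0.0592). Its 10 cytosines lay 367 to 449 bp downstream of the TSS, chr8:92827657-92827739. The experimental values were 0.43, 0.46, 0.212, 0.379 and 0.524, and 0.644 at day 0, the highest of the 12. The control values ran from 0.0837 to 0.284 with a median of 0.15. The groups overlapped because experimental day 12 (0.212) lay below control day 0 (0.284) and just below control day 16 (0.214). All 10 cytosines were higher in the experimental mean. The adjusted p was 0.042 without control day 0, 0.0406 without experimental day 12, and 0.0315 with experimental day 0 included. These were the only 3 of 20 alternatives in which it passed by limma. Over the 20 the adjusted p ran up to 0.171.

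**Figure D3:**
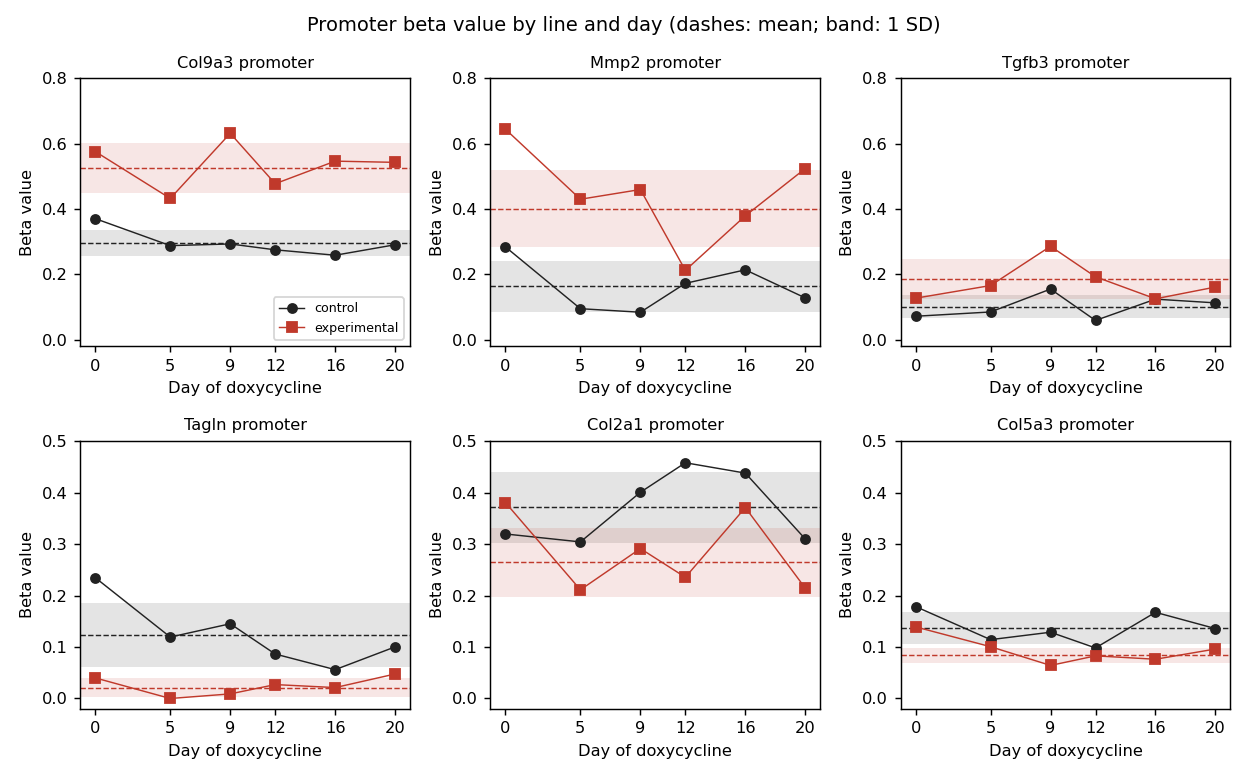
Promoter beta value by day of doxycycline for 6 genes in the control line (black circles) and the experimental line (red squares); dashes are the group means, with day 0 left out of the experimental mean, and bands are 1 SD. Col9a3 and Tagln do not overlap between the lines, and the upper and lower rows have different vertical scales.

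Of the other fibrillar collagens, Col5a3 had control values from 0.0982 to 0.179 with a median of 0.132. Its experimental values were 0.101, 0.0642, 0.0828, 0.0763 and 0.0961, and 0.139 at day 0 (adjusted p = 0.0898). Over its 14 cytosines the control mean was 0.137 and the experimental mean 0.084, and 8 of the 14 were lower in the experimental mean. In the 9 cytosines printed above in capitals the means were 0.127 and 0.0522. Col2a1, the major collagen of cartilage, had experimental values of 0.211, 0.291, 0.236, 0.371 and 0.214 and a day 0 value of 0.381. Its control values ran from 0.304 to 0.458 with a median of 0.36, and all 8 cytosines were lower in the experimental mean (adjusted p = 0.188). Col11a1, a minor fibrillar chain, was at 0 in all 6 control libraries. In the experimental line it was 0.188, 0.262 and 0.219 at days 0, 5 and 12 and 0 at days 9, 16 and 20 (adjusted p = 0.345).

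Tgfb3, a TGF-beta ligand, had experimental values of 0.166, 0.286, 0.192, 0.125 and 0.161, and 0.127 at day 0. Its control values ran from 0.0585 to 0.155 with a median of 0.0985 (adjusted p = 0.13). The difference lay at 2 single cytosines. At -1256 bp the control mean was 0.562 and the experimental mean 0.864, and at -1062 bp they were 0.144 and 0.427. The 5 cytosines at -357 to -310 bp were at 0 in control and 0.002 in experimental libraries.

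Zeb1, a zinc finger repressor of epithelial genes, ranged widely within the experimental line, at 0.0298, 0.214, 0.101, 0 and 0.0816, and 0.0336 at day 0. Its control values ran from 0 to 0.0524 with a median of 0.0251 (adjusted p = 0.486). Cdh11 had experimental values of 0.509, 0.381, 0.497, 0.465 and 0.451, and 0.49 at day 0. Its control values ran from 0.408 to 0.513 with a median of 0.485 (adjusted p = 0.831). The differences of the other 18 measured promoters ran from -0.0212 for Twist2 to 0.0519 for Col18a1, and none passed, the smallest adjusted p being 0.249 for Cdh2.

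Cdh2, Snai1 and Timp3 are described by stretch, chosen after their values were seen. In Cdh2 the 3 cytosines at -738 to -698 bp averaged 0.305 ± 0.122 (SD, n = 6) in control and 0.155 ± 0.114 (SD, n = 5) in experimental libraries, and the 17 at -172 to -62 bp averaged 0.00278 over the 12 libraries. In Snai1, a repressor of E-cadherin, the 3 cytosines at -446 to -405 bp averaged 0.206 over the 12 libraries, and the 6 printed above and the 5 at 137 to 180 bp were near 0. In Timp3 the 5 printed cytosines ranged from 0.2 to 0.5 in control and were 0.189, 0, 0.322, 0.118 and 0.636 in the experimental line, with 0.0222 at day 0. They varied more between days of the experimental line than between the line means, 0.253 and 0.29.

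Below the minimum, the values are given without a test. The 2 Postn cytosines had means of 0.687 ± 0.21 (SD, n = 6) in control and 0.81 ± 0.191 (SD, n = 5) in experimental libraries. The Col1a1 cytosine at -1373 bp had means of 0.156 ± 0.135 and 0.235 ± 0.224, and the one at -1235 bp 0.831 ± 0.203 and 0.596 ± 0.241 (SD, n = 6 and 5). The 2 Bgn cytosines ranged from 0 to 0.423 in control with a mean of 0.168, and were at 0 in every experimental library. The Col6a1 cytosine at 440 bp had means of 0.0141 and 0.0473. The Loxl1 cytosine at -699 bp ranged from 0.208 to 1 in control and from 0.556 to 1 in the experimental libraries of days 5 to 20. Just inside the minimum, the 3 Pdgfrb cytosines averaged 0.013.

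The main comparison left day 0 out of the experimental group and kept it in the control group. The day 0 libraries of both lines show whether a difference was already there. At day 0 the experimental line minus the control line was 0.205 for Col9a3, -0.195 for Tagln and 0.361 for Mmp2. Over days 5 to 20 of both lines the same differences were 0.245, -0.0805 and 0.263, so each of these 3 had its later direction before doxycycline. Of the 9 members whose lines were over 0.05 apart at day 0, 7 had the same sign later, against 70.3% of the 3688 promoters that far apart. Col2a1 and Col18a1 were the 2 exceptions, named after their values were seen. Col2a1 went from 0.0609 to -0.117 and Col18a1, the gene of the endostatin collagen, from -0.0825 to 0.0776. Timp3, counted among the 7, kept its sign but went from -0.0766 to -0.000675, so a shared sign is not always a lasting difference. Single day 0 libraries give no replicate spread.

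**Figure D4:**
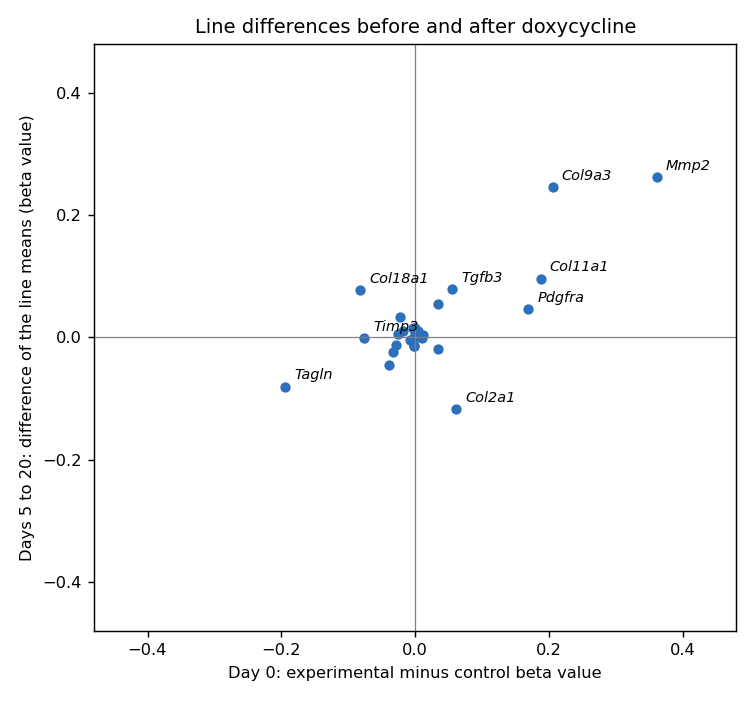
Difference between the lines at day 0 (horizontal) and difference between the means of days 5 to 20 (vertical), experimental minus control, as promoter beta values, with 1 point per measured promoter. Col9a3, Mmp2 and Tagln keep their side of 0, and Col2a1 and Col18a1 do not.

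To ask whether the lines changed differently after doxycycline, the change from day 0 to days 5 to 20 was compared between them in 1 model with an interaction term. None of the 29 promoters passed, and none had an unadjusted p under 0.05 by limma. Over all 13141 promoters 0.198% passed and 6.5% had an unadjusted p under 0.05. With beta values in place of M-values, and with day as a slope, 1 member had an unadjusted p under 0.05. With day as a slope it was Vim, which did not pass (limma, adjusted p = 0.923). The shares of all promoters in these settings are not given here, so the member counts cannot be set against them. The standard error of the interaction contrast for the members was 0.899 M units at the median, against 0.365 for the line comparison. With 1 day 0 library per line, the contrast was imprecise. For Mmp2 its standard error was 1.01 M units, beside a line difference of 1.8 M units. Changes of that size could be missed, so the lack of calls does not show that the lines changed alike. From day 0 to the mean of the later days the Mmp2 promoter moved by -0.145 in control and -0.243 in experimental cells. Tagln moved by -0.133 and -0.019.

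At single cytosines, none of the 447 passed (limma, adjusted over 606488 autosomal cytosines, of which 0.404% passed). The smallest adjusted p was 0.115, and 28 had an unadjusted p under 0.05, against 9.63% of all cytosines. With beta values 1 of the 447 passed.

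Gene bodies were taken from 500 bp downstream of the TSS to the gene end, without the cytosines of promoter windows. The rule for measured promoters did not use this readout. Of the 55 genes, 43 on autosomes had at least 3 such cytosines. Their median beta value was 0.636, against 0.679 over all autosomal gene bodies, and 27 of 43 were at least 0.5, 62.8% against 68.6%. The gene bodies ran from 0.00507 for Vcan, the large proteoglycan versican, to 0.945 for Zeb1. The starts that the RefSeq promoter table gives for Vcan, Pdgfra and Tgfb2 lie 515, 929 and 3708 bp inside the gene ends used here, so these 3 bodies contain an annotated start. Lox, the founding lysyl oxidase, and Snai1 were also low, at 0.0293 and 0.0149. Both readouts were available for 24 genes, the gene body alone for 20 with the X-linked Bgn, and neither for 6, namely Postn, Dcn, Lum, Loxl2, Acta2 and S100a4.

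Of the 43, only the Tgfbr2 gene body passed, against 4.43% of all gene bodies, and 6 of 43 had an unadjusted p under 0.05, against 20.6% of all. The values of the 2 groups did not overlap for Tgfbr2 and Mmp14, 2 of 43, against 6.33% of all. The 13 Tgfbr2 cytosines had experimental values of 0.846, 0.931, 0.843, 0.838 and 0.856, and 0.857 at day 0. The control values ran from 0.654 to 0.779 with a median of 0.702. Every experimental library was above every control library, at means of 0.863 ± 0.0385 (SD, n = 5) and 0.715 ± 0.052 (SD, n = 6). The M-value difference was 1.31 ± 0.26 (SE, adjusted p = 0.0241). The promoter of the same gene was at 0.0221 or less in all 12 libraries.

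The Tgfbr2 cytosines fell into 5 stretches between 53672 and 83302 bp into the gene, in which no other gene overlapped. The 3 cytosines at chr9:116121599-116121691 had means of 0.754 in control and 0.96 in experimental cells. The 5 at chr9:116092061-116092734 had means of 0.578 and 0.758. At the single cytosine in the stretch between these, 71176 bp into the gene, the means were 0.69 and 0.683.

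Sparc, the collagen-binding glycoprotein osteonectin, and Mmp14, the membrane-type metalloproteinase that activates Mmp2, came next and did not pass. The Sparc gene body had experimental values of 0.817, 0.882, 0.84, 0.838 and 0.913, and 0.784 at day 0. Its control values ran from 0.74 to 0.826 with a median of 0.756 (adjusted p = 0.0614). The Mmp14 gene body had experimental values of 0.449, 0.485, 0.47, 0.455 and 0.453, and 0.436 at day 0. Its control values ran from 0.49 to 0.568 with a median of 0.525, all above the experimental ones (adjusted p = 0.103). The other 3 with an unadjusted p under 0.05 were Tgfb3, Tnc (tenascin C) and Lox, whose differences were 0.0983, 0.0789 and 0.0206, with adjusted p of 0.147, 0.192 and 0.243.

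**Figure D5:**
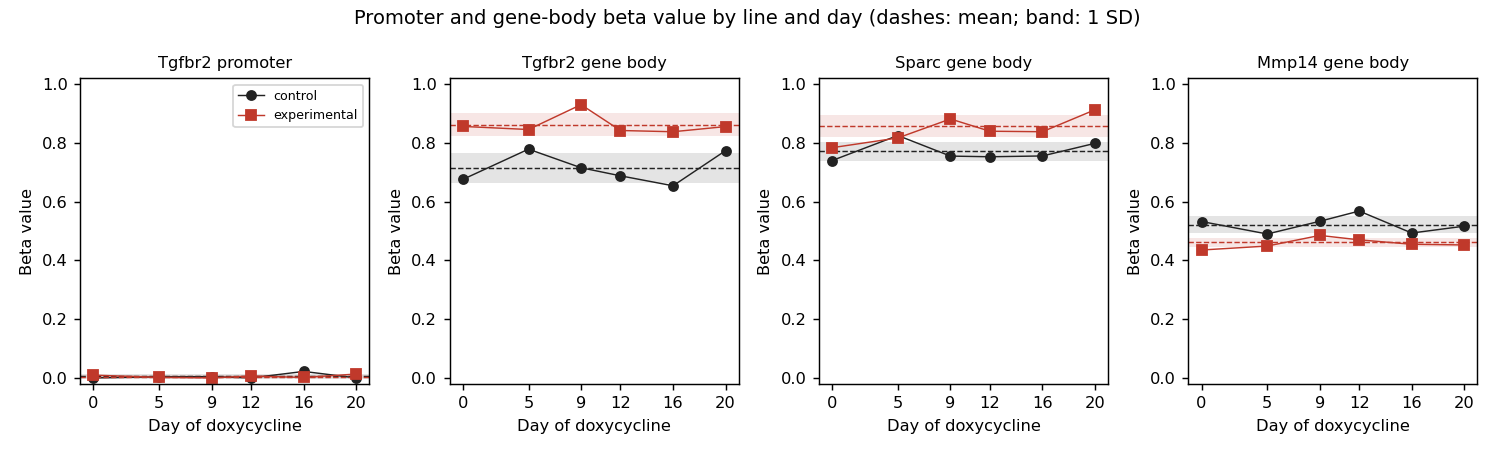
Beta value by day of doxycycline of the Tgfbr2 promoter and of the Tgfbr2, Sparc and Mmp14 gene bodies in the control line (black circles) and the experimental line (red squares); dashes are the group means, without experimental day 0, and bands are 1 SD. The Tgfbr2 promoter lies near 0 while its gene body is higher in every experimental library.

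A wider list of 91 matrix and mesenchymal pathway genes outside the 55 had 54 measured promoters, of which 3 passed, 2 higher and 1 lower, with 11 at an unadjusted p under 0.05, beside 2.57% and 18.1% of all promoters. Col11a2, a minor fibrillar collagen of cartilage, had means of 0.311 ± 0.114 (SD, n = 6) in control and 0.619 ± 0.0341 (SD, n = 5) in experimental libraries (adjusted p = 0.0262). Adamts5, an aggrecan-cleaving protease, had means of 0.231 ± 0.0462 (SD, n = 6) in control and 0.113 ± 0.0331 (SD, n = 5) in experimental libraries (adjusted p = 0.0391). At day 0 Col11a2 and Adamts5 differed between the lines by 0.152 and -0.108, in the same directions. The median difference over the 54 was 0.00218.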

How the data were processed

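Genomic DNA of 12 iMEF samples was measured by RRBS. The authors aligned the reads to mm10 with Bismark, per the labels, and deposited the percent of reads called methylated for each CpG cytosine, without read counts. Depth is therefore unknown, and no coverage minimum or interval was set. Percentages were rescaled to beta values between 0 and 1. All 617842 cytosines listed in the 12 libraries were kept, 606488 on autosomes, and both cytosines of a CpG stayed separate. The 71416 that fell in RefSeq promoter windows were all in a CpG of that build.

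The TSS was the outer end of the RefSeq GRCm38.p6 gene. Strand came from the RefSeq promoter table or, matched by symbol, from an older gene annotation that supplied only the strand (16209 of 16253 genes with both were equal). Promoters needed 3 cytosines and were averaged. M-values, log2((beta + 0.01) / (1 - beta + 0.01)), were tested two-sided with limma 3.58.1 in R 4.3.3 on autosomes, with Benjamini-Hochberg adjustment over all features and a threshold of 0.05. The fits were also run on simulated libraries drawn independently of each other, which cannot show how they perform on time points of 1 line. The members and lists were chosen with earlier results of these data known. Genes given with a value in each library were those past the threshold, the 8 with the largest difference, the 6 with the highest level and the 3 with the largest day 0 difference. For the wider pathway list, 1 gene past the threshold is not reported here. Gene bodies were a planned readout. Col5a3, Timp3 and the Sparc and Mmp14 gene bodies were given by library, and other members by mean or stretch, after their values were seen. Alternatives changed the offset, scale, window, minimum, TSS, day 0 library, replicate block and each library in turn.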

Additional observations from a re-analysis of the deposited data

Results flagged for a closer look

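In 62 groups of 5 or 6 libraries of the members' promoters and of the Tgfbr2, Sparc and Mmp14 gene bodies, 12 held 1 library that stood apart from the rest of its group by Dixon's test. Chance alone flags about 1 in 20 groups, and many of these values lie close to 0, where the other libraries of the group are at or near 0.

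In the control line, the library that stood apart was day 0 for Col9a3 (0.37, the others 0.258 to 0.293) and for Col18a1 (0.237, the others 0.0598 to 0.105). It was day 12, the library with the fewest listed cytosines, for the shared Col4a1 and Col4a2 promoter (0.0909) and for Snai2 (0.0572). It was day 16 for Zeb2 (0.0153) and for the Tgfbr2 promoter (0.0221). In the experimental line it was day 20 for Col5a1 (0.0833) and Col6a2 (0.0204), and day 16 for Fn1 (0.00506), Timp2 (0.0136) and Zeb2 (0.0414). The Tgfbr2 gene body stood apart at experimental day 9 (0.931, the others 0.838 to 0.856).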

How the results depend on the processing

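The Col9a3 difference kept its direction in 20 of 20 alternatives and passed in 19, Tagln passed in 10 of 20 and Mmp2 in 3 of 20. Their adjusted p ran from 0.00407 to 0.0931, from 0.025 to 0.179 and from 0.0315 to 0.171. Of the 29 promoters, 2 passed, against 1 with beta values and 1 to 2 when 1 library was left out. Of all promoters, 338 passed, against 211 with 500 bp on each side and 165 (without experimental day 5) to 360 (without control day 12) when 1 library was left out. The induction contrast gave 26, against 50 with an offset of 0.05, 94 with beta values, 0 with a day slope and 16 to 39 when 1 library was left out. Of the members' gene bodies 1 passed, beside 4.43% of all gene bodies. With a minimum of 10 cytosines 2 passed and with beta values 3. The shares of all gene bodies in these 2 settings are not given here, so the member counts cannot be set against them. Over all cytosines 2450 passed and with beta values 4178, and in the members' promoters 0 and 1. The Cdh11 difference, -0.0865 M units, ran from -0.164 (without control day 12) to 0.0282 (without experimental day 9) when 1 library was left out. The cause of these differences was not tested.

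The days shared by the lines did not pair the libraries, with correlations of -0.038 to 0.0198 between libraries of the same day. With day as a replicate block the line comparisons also left out control day 0, which had no experimental counterpart in them. The counts were then 8 promoters, 0 of the members' promoters, 0 for the induction contrast, 42 gene bodies, 0 of the members' gene bodies and 58 cytosines. Col9a3 and Tagln, both below the threshold without the block, had adjusted p of 0.0931 and 0.179 by limma. The TSS of the promoter table was an alternative chosen after seeing the data. Unknown depth limits every single-cytosine value.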
